A study of Mus musculus with 3 samples.

Results

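The IL-6 and IL-27 receptor chains and the receptor chains of IL-10 and IL-17 were examined in 3 RNA-seq libraries labelled as mouse T-helper 1 cells. The members were 6 genes taken by symbol, Il6ra, Il6st, Il27ra, Il10ra, Il10rb and Il17ra, and each symbol was found once among the 50600 genes of the count tables. The series held 1 group of 3 libraries, biological replicates 1, 2 and 3, made from separate biosamples of primary cells of strain C57BL/6NJ under a single donor identifier. Age is given as unknown and sex as not collected. The count tables carry a time of 0 hours, and the linked protocols are one for in vitro differentiation of CD4+ T cells and a library protocol named for poly(A)+ RNA, whereas the assay is labelled total RNA-seq. With 1 group there was no comparison of conditions, so genes were compared within a library and libraries with each other. P-values between libraries measure the spread of these 3 libraries, which may be technical.

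IL-6 is held by the IL-6 receptor alpha chain, encoded by Il6ra, and signals only after gp130, encoded by Il6st, joins the complex. IL-27 uses the same gp130 chain with its own receptor chain, encoded by Il27ra. Both complexes signal through Janus kinases to Stat3 and other Stat factors. IL-10 binds a complex of the ligand-specific chain from Il10ra and the shared chain from Il10rb, which also serves IL-22 and the lambda interferons. Il17ra encodes the subunit common to several receptors of the IL-17 family, which signal through the adaptor Act1 rather than through Janus kinases. In T cells IL-6 favours Th17 and follicular helper fates, IL-27 favours T-bet and IL-10 production, and naive CD4 T cells are known to carry gp130 and the IL-6 and IL-27 receptor chains.

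The libraries held 2510319 to 4305077 counts each. All 12 T cell markers and all 8 naive T markers reached 1 TPM (a library's count per base of exon, scaled to a fixed sum over genes) in every library. Of 12 Th1 markers 5 did so. These were Il18r1 at 28.4 ± 18.7, Cxcr6 at 17.2 ± 4.94, Runx3 at 15.9 ± 5.42, Stat4 at 14.8 ± 7.15 and Il12rb2 at 14.3 ± 3.21 TPM (SD, n = 3 each). The defining Th1 genes Tbx21 and Ifng had 4 counts each over the 3 libraries, and Cxcr3 and Hlx had 0. Ccl5 and Gzmb had 2 each and Il18rap 8. The genes of the list below 1 TPM thus went against the label, and the cells are called here by the libraries' label alone. Myeloid cells also use several of these receptors. Of 10 myeloid markers, Csf1r and Fcgr3 reached 1 TPM, the summed level of the list was 83.7, 70.02 and 97.04 TPM in replicates 1, 2 and 3, and Cd14, Adgre1, S100a8, S100a9, Csf3r and Mpeg1 had 0 counts. Csf1r, whose exons overlap a gene of the other strand, made up most of that sum at 81.1 ± 14.5 TPM (SD, n = 3). Of 8 B cell markers Cd79a and Ighm reached 1 TPM, the list summed to 271, 401 and 123.1 TPM, and Ms4a1, Igkc and Pax5 had 0 counts. In the remaining lists 1 of 2 cytotoxic T, 1 of 6 dendritic cell, 1 of 5 NK cell, 1 of 7 stromal, endothelial and epithelial and 0 of 4 erythroid and platelet markers reached 1 TPM. The part of these other cell types in the receptor levels was not tested.

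Reads were counted for a gene only where the first read lay on the gene's strand, per the file headers. If the kit gives the opposite orientation, a gene's counts come from fragments of the other strand, and this cannot be settled here. Of the 50600 genes, 8189 have exons that overlap a gene of the other strand. They held 63.1%, 53.8% and 76.5% of all counts in replicates 1, 2 and 3. Genes whose other strand is empty for 5 kb around them held 15.4%, 19.9% and 9.05%. How far the orientation shaped these shares was not tested. What lies opposite each receptor gene is therefore given with its values. The promoters of the gp130 gene and of the IL-6 receptor gene, the 2 available, are shown, and they differ in this respect. The 300 bases around the Il6ra start (GRCm38.p6, chr3:89913147-89913446, minus strand) lie wholly inside Gm42809, an antisense gene of the plus strand that was counted in all 3 libraries. No annotated gene spans the other strand of the Il6st window (chr13:112463820-112464119, plus strand). Both sequences are RefSeq's, from 250 bases before to 50 after the start, and the table used gave a promoter for 2 of the 6 genes. Capitals mark matches to the motifs named below.
Il6ra: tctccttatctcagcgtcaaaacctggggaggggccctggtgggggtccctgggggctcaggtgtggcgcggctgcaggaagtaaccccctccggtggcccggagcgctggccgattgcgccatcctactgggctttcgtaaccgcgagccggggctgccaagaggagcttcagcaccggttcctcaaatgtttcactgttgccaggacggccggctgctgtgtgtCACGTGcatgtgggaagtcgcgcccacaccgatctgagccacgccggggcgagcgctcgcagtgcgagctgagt
Il6st: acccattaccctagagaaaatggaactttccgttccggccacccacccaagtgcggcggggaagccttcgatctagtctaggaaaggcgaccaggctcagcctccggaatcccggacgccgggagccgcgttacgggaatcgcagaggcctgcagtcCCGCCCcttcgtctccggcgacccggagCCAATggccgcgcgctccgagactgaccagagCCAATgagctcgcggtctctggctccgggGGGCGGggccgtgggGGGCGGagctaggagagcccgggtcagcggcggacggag
The windows were searched on both strands for the GC box GGGCGG, the CCAAT box CCAAT, the E-box CACGTG, the STAT palindrome TTCNNNGAA and the TATA box TATAAA. The Il6st window held 3 GC boxes and 2 CCAAT boxes, which do not overlap each other. Of 32851 promoter windows of the same length, 35.7% held a GC box and 37.4% a CCAAT box. The Il6ra window held 1 E-box, a motif found in 7.15% of all windows. The letters of the STAT palindrome (8.30% of windows) and of the TATA box (13.6%) were in neither window. G and C made up 66.0% of the Il6ra and 68.3% of the Il6st window, against a median of 52.7% over all windows.

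The receptor chain of IL-27 had the highest level of the 6, the IL-6 receptor chain came next, and both IL-10 receptor chains were lowest. Il27ra (chromosome 8, 84030294 to 84042589, minus strand) stood at 119.01, 163 and 46.1 TPM in replicates 1, 2 and 3, from 783, 1119 and 241 counts. Il6ra (chromosome 3, 89864059 to 89913196, minus strand) stood at 63.4, 78.9 and 31.4 TPM, from 1031, 1336 and 405 counts. Both were higher in replicate 2 than in replicate 1 and lowest in replicate 3. Their means were 109.5 ± 59.2 TPM for Il27ra and 57.9 ± 24.2 TPM for Il6ra (SD, n = 3 each). Among 13235 protein-coding genes with at least 1 count, the mean level of Il27ra lay at the 95.5 percentile and that of Il6ra at the 91.1 percentile.

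Il6st, the gp130 gene that both ligands need (chromosome 13, 112464070 to 112510086, plus strand), stood at 32.1, 58.7 and 11.4 TPM in replicates 1, 2 and 3, from 671, 1277 and 189 counts. Il17ra (chromosome 6, 120463247 to 120487559, plus strand) stood at 35.5, 56.98 and 13.98 TPM, from 579, 967 and 181 counts. The spread of these 2 genes between libraries was wider than their difference within any library. Il6st averaged 34.1 ± 23.7 TPM and Il17ra 35.5 ± 21.5 TPM, at the 84.5 and 85.1 percentile.

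For the IL-10 receptor, the shared chain Il10rb (chromosome 16, 91406164 to 91425834, plus strand) stood at 15.1, 20.5 and 4.22 TPM from 108, 153 and 24 counts. The ligand-specific chain Il10ra (chromosome 9, 45253837 to 45269149, minus strand) stood at 6.53, 7.44 and 5.36 TPM from 43, 51 and 28 counts. Il10rb was therefore above Il10ra in replicates 1 and 2 and below it in replicate 3. The means were 13.3 ± 8.29 TPM for Il10rb and 6.44 ± 1.05 TPM for Il10ra, at the 65.1 and 47.9 percentile of protein-coding genes with a count. Il10rb shares 569 exonic bases with Gm21970, a same-strand gene with 0 counts, and fragments within both are not counted by default, so Il10rb may be undercounted. In bulk RNA, fewer cells carrying a transcript and less of it per cell cannot be told apart.

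**Figure D1:**
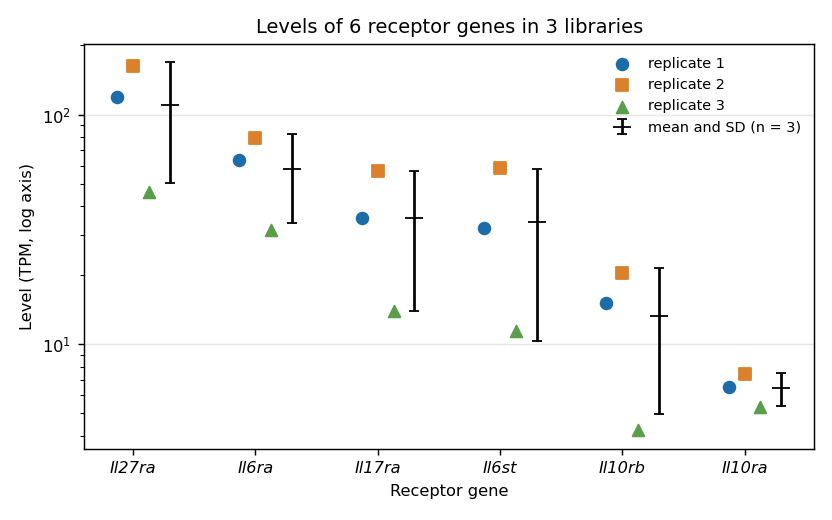
Level of each receptor gene in TPM (log axis) in replicates 1, 2 and 3, with mean and SD in black. Il27ra is highest and Il6ra next in each library, and all 6 genes have their lowest TPM in replicate 3.

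The 6 genes summed to 272, 386 and 112 TPM in replicates 1, 2 and 3. As a share of that sum, which does not depend on library scaling, Il27ra took 43.8%, 42.3% and 41.03%. Il6ra took 23.3%, 20.4% and 27.9%. The IL-27 and IL-6 ligand-binding chains together held 67.2%, 62.8% and 68.9% of the sum, and the share of Il27ra changed least relative to its size (42.4 ± 1.39%, SD, n = 3). Il6st took 11.8%, 15.2% and 10.1%, Il17ra 13.1%, 14.8% and 12.4%, and Il10rb 5.55%, 5.31% and 3.75%. Il10ra took 2.40%, 1.93% and 4.76%, its largest share being in replicate 3.

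Ratios within a library were then taken to order the chains. Of the 15 pairs, 13 had a single direction in all 3 libraries. With 3 libraries an exact two-sided sign-flip test cannot go below p = 0.25, so no pair could pass, and the adjusted p over the 15 pairs was 0.288 for these 13 and 0.5 for the other 2. Of the 5 neighbouring pairs in the order, 3 kept their direction. Il27ra exceeded Il6ra by a mean log2 ratio of 0.84 ± 0.25, and Il6ra exceeded Il17ra by 0.82 ± 0.35 (SD, n = 3). The difference between Il17ra and Il6st was 0.13 ± 0.17, with Il6st higher in replicate 2 only. Il6st exceeded Il10rb by 1.34 ± 0.22 in all 3 libraries, whereas Il10rb over Il10ra averaged 0.77 ± 0.97 and changed sign.

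Each ligand-binding chain was set against the gp130 gene it pairs with. Per base of exon, Il27ra had 3.71, 2.78 and 4.05 times the counts of Il6st in replicates 1, 2 and 3, with a ratio of 3.18 over the summed counts (95% exact Clopper-Pearson interval 3.00 to 3.38, counting error only). For Il6ra over Il6st the ratios were 1.97, 1.34 and 2.75, and 1.67 over the summed counts (interval 1.57 to 1.76). Both chains exceeded gp130 least in replicate 2 and most in replicate 3, and the spread between libraries was wider than the counting interval. Within the IL-10 receptor, Il10rb over Il10ra was 2.31, 2.76 and 0.787, and in replicate 3 the interval of 0.437 to 1.41 included 1. Lengths mattered for gp130. With the longest coding transcript of each gene in place of all annotated exons, 8678 against 11099 bases for Il6st and 7752 against 8662 for Il17ra, Il6st averaged 43.6 TPM and Il17ra 39.7 TPM, the reverse of their order above, and Il10rb, at 1850 against 3808 bases, averaged 27.3 TPM. On that length Il10rb stood at 31.01, 42.2 and 8.68 TPM, above Il10ra in all 3 libraries, so the change of sign in replicate 3 was lost and the mean log2 ratio was 1.80.

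**Figure D2:**
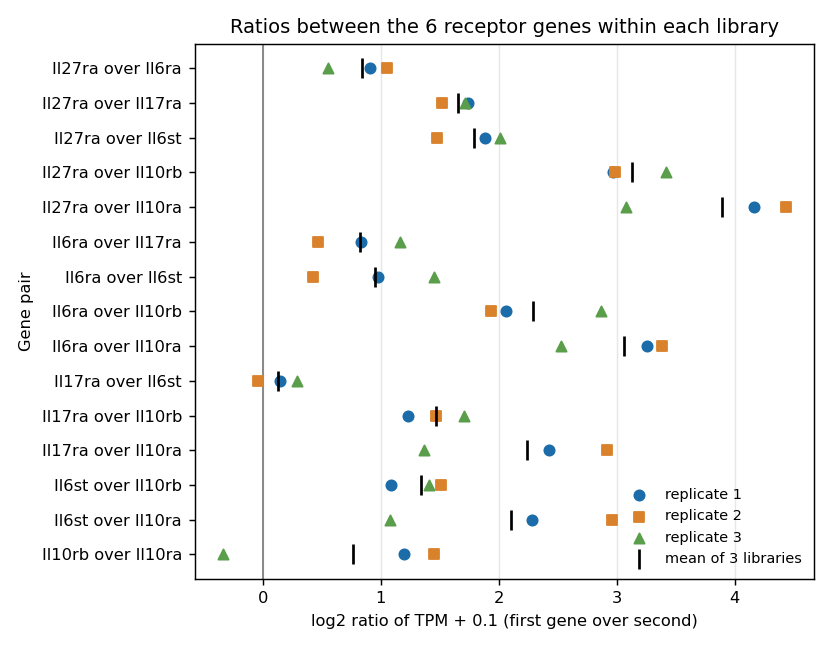
log2 ratio of TPM + 0.1 for each pair of receptor genes (first over second) in each library, with the mean of the 3 libraries as a black bar. The markers of Il17ra over Il6st and of Il10rb over Il10ra fall on both sides of 0, and those of the other 13 pairs do not.

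The next question was how the receptor genes varied between the libraries. In TPM all 6 were lowest in replicate 3 and highest in replicate 2. Of 10662 genes tested, 70.4% were lowest in replicate 3 and 70.9% highest in replicate 2, and of the 6244 tested genes without exon overlap with the other strand 86.2% were lowest in replicate 3, so the shared pattern was also that of most genes. The summed T cell markers moved likewise, at 3391, 5516 and 1682 TPM in replicates 1, 2 and 3. Counts were therefore scaled by effective library sizes (trimmed mean of M-values, TMM), and each gene's spread was set against that of Poisson counting in a chi-square test with Benjamini-Hochberg adjustment over all genes tested. Of the 6 genes 5 were called at an adjusted p of 0.05, against 62.4% of all genes tested, a background that leaves little to read from the count. By what lies on the other strand, the background was 74.7% in the exon overlap class of Il27ra and Il6ra, 54.3% in the class of Il17ra and Il10ra with a gene within 5 kb, and 52.7% in the class of Il6st and Il10rb with none. A range over 1 on the log2 scale was seen for 2 of the 6, Il6st and Il10rb, against 39.5% of genes.

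Il6st had the widest range among the 6 with TMM over all genes. Its TMM-scaled counts (CPM, per fixed library size) were 174, 234 and 101.1 in replicates 1, 2 and 3, a log2 range of 1.21 (adjusted p = 9.46e-30, range over the alternatives 2.94e-84 to 8.36e-09). By coefficient of variation, another measure of spread, Il6st and Il10rb were close, at 39.2% and 38.1% with TMM and 36.0% and 36.4% with DESeq2 size factors. The widest range no longer belonged to Il6st with TMM over genes without exon overlap. There the log2 ratio of replicate 3 to replicate 2 was −0.89 for Il6st and 1.00 for Il10ra. Il17ra had 149.96, 177 and 96.8 CPM (adjusted p = 7.63e-13, range 2.30e-48 to 0.00936). These 2 genes kept their calls under every scaling, filter and omission of 1 library that was tried.

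Il27ra had 203, 205 and 129 CPM (adjusted p = 4.35e-10), so that replicates 1 and 2 differed by little and replicate 3 stood lower. Without replicate 3 its adjusted p was 0.938. Il10rb had the same pattern, at 27.97, 28.02 and 12.8 CPM (adjusted p = 0.00197, and 0.994 without replicate 3). Il6ra moved less, at 267, 245 and 217 CPM (adjusted p = 0.00278), and lost its call without replicate 1 (adjusted p = 0.168) and without replicate 3 (adjusted p = 0.0863).

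Il10ra was the exception to the order of the libraries. It had 11.1, 9.34 and 14.98 CPM in replicates 1, 2 and 3, highest where the other 5 were lowest, and did not pass the test (adjusted p = 0.175, range 0.0225 to 0.967). In TPM its lowest value was in replicate 3, so the direction depends on the scaling. It passed with TMM computed over genes without exon overlap (adjusted p = 0.0225), where 6 of 6 genes were called against 53.6% of all, and without replicate 1 (adjusted p = 0.0491). Replicate 3 over replicate 2, the scaled log2 ratio of Il6ra also turned, being −0.18 with TMM over all genes and 0.15 with TMM over genes without exon overlap, while the median of all tested genes went with it, at −0.09 and 0.23.

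The 6 genes were also set against T cell transcripts in place of the whole library, a scale added after the data were seen. On it 5 of the 6 varied less than in TPM and Il10ra varied more. The median T cell marker was itself lowest in replicate 3, as were 70.4% of all tested genes in TPM. The share of all tested genes that varied less on this scale was not computed. The count of 5 can therefore not be read as particular to the receptor genes. The unit was the median of the 10 T cell markers without exon overlap, at 253, 368 and 122 TPM. On it Il27ra was at 0.470, 0.444 and 0.377 and Il6ra at 0.2505, 0.215 and 0.256 in replicates 1, 2 and 3, with coefficients of variation of 11.2% and 9.40%, against 54.1% and 41.9% in TPM. With TMM scaling these were 24.2% for Il27ra and 10.4% for Il6ra, so for Il6ra the 2 scales gave near values. Il17ra was at 0.140, 0.155 and 0.114, Il6st at 0.127, 0.160 and 0.0931 and Il10rb at 0.0595, 0.0558 and 0.0345. Their coefficients of variation were 15.1%, 26.3% and 27.1% on this scale, against 60.6%, 69.6% and 62.5% in TPM. Il10ra was at 0.0258, 0.0202 and 0.0438, and its coefficient of variation was 41.1% on this scale and 16.2% in TPM.

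The raw count ratio of replicate 3 to replicate 2 was then taken by what lies opposite each gene. Its log2 median was −1.99 over the 2600 tested genes whose other strand is empty within 5 kb, −1.82 over 3644 with a gene there but no shared exon, and −0.52 over 4418 with exon overlap. Il6st, with no opposite gene within 5 kb, was at −2.76 (95% exact binomial interval −2.98 to −2.53), and Il10rb, of the same class, at −2.67 (interval −3.36 to −2.05). Il17ra, which has Tmem121b 1379 bases beyond it on the other strand, was at −2.42. Il27ra was at −2.22 and Il6ra at −1.72, both of the exon overlap class and below its median of −0.52. Il6st, Il10rb and Il17ra were also below the medians of their classes. Il10ra, with the pseudogene Gm20612 on the other strand inside it, was at −0.87 (interval −1.58 to −0.17), above the median of its class. Its 122 counts in all limit how firmly that difference can be read.

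**Figure D3:**
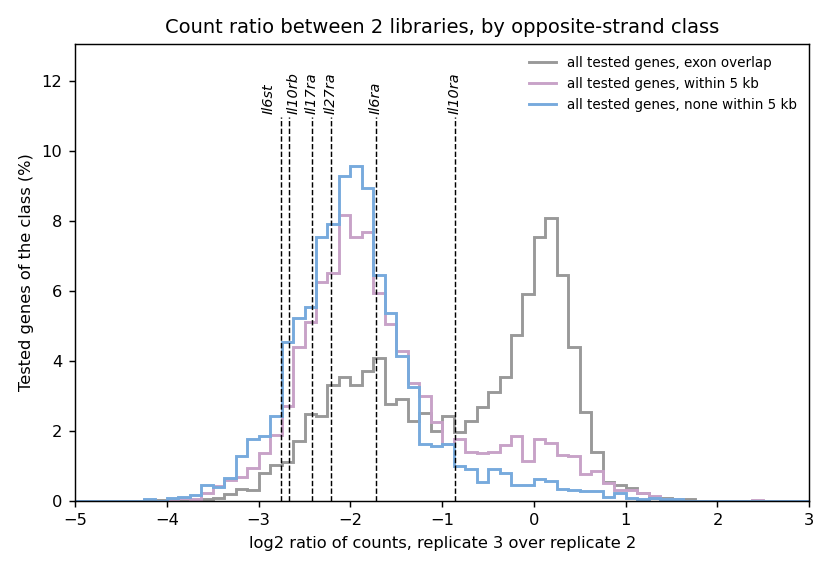
Distribution of the log2 count ratio of replicate 3 over replicate 2 for tested genes in each opposite-strand class (share of the class per bin), with dashed lines at the 6 receptor genes. Il6st at −2.76 and Il10rb at −2.67 are leftmost, and Il10ra at −0.87 stands apart on the right.

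Opposite the receptor genes of IL-27 and IL-6 lay features with more counts per base than the genes themselves. Palm3, on the plus strand of chromosome 8 from 84021471 to 84030295, meets Il27ra tail to tail and shares 2 exonic bases with it. It had 5745, 5039 and 5063 counts in replicates 1, 2 and 3, at 832 ± 113.6 TPM (SD, n = 3), and per base 7.10, 4.36 and 20.3 times the counts of Il27ra. Palm3 was thus nearly level in raw counts between replicates 3 and 2, a log2 ratio of 0.0069, where Il27ra was not. Gm42809, on the plus strand of chromosome 3 from 89912916 to 89914053, shares 242 exonic bases with Il6ra and covers the promoter printed above. It had 588, 705 and 467 counts, fewer than Il6ra in replicates 1 and 2, at 288 ± 24.04 TPM, and per base 4.33, 4.01 and 8.76 times the counts of Il6ra. The part of the opposite-strand features in the levels of Il27ra and Il6ra was not tested. Near the other members the opposite strand held few counts. Tmem121b had 23, 24 and 33 counts, BC049352 near Il10ra had 6, 15 and 9, and Gm20612, within an intron of Il10ra, had 8, 11 and 4. Being short, Gm20612 still had 2.76, 3.20 and 2.12 times the counts of Il10ra per base. On the same strand, Rln3 lies 339 bases from Il27ra with 31, 37 and 35 counts, Ifnar2 lies 574 bases from Il10rb with 117, 158 and 43, and Mir7086, within Il10ra, had 0.

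**Figure D4:**
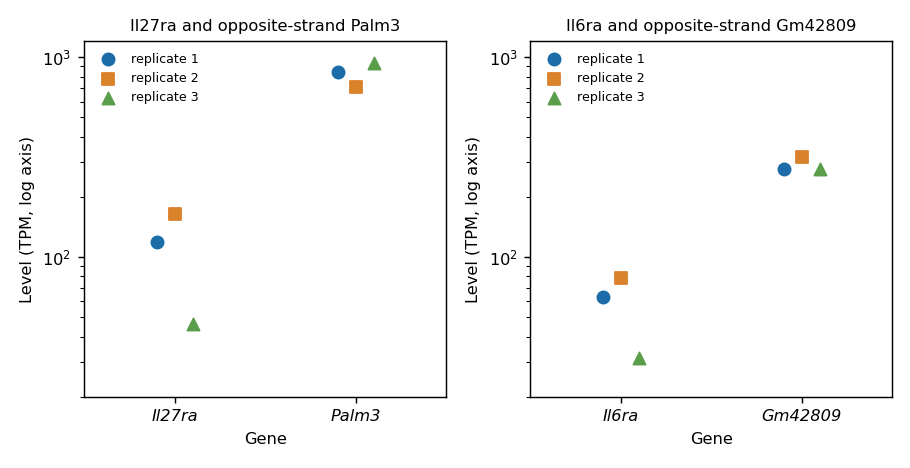
TPM (log axis) of Il27ra beside Palm3 and of Il6ra beside Gm42809, each pair on opposite strands, in the 3 libraries. The receptor genes are lowest in replicate 3, while Palm3 is highest there, at 938 TPM, and Gm42809 stands at 275 TPM.

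The genes around the receptors were described from 11 lists of ligands, partner chains, kinases, inhibitors and targets. Of 127 distinct genes 73 reached 1 TPM in all 3 libraries, against 41.6% of all 21764 protein-coding genes, and 32 had 0 counts. A count of 0 allows up to 3 counts, which was 0.126 to 3.45 TPM depending on the gene's length and the library. The lists were described by counts and by the median over members of the mean log2(TPM + 0.1), which was −0.97 over all protein-coding genes and 2.67 over those with a count.

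Ligand genes were mostly at 0. Il6 itself had 0 counts, a limit of 0.656, 0.631 and 0.827 TPM in replicates 1, 2 and 3, and so did Ebi3, the partner subunit of IL-27, with a limit of 1.36, 1.31 and 1.72 TPM. Il27, the p28 subunit, had 16, 35 and 24 counts, at 13.9 ± 4.87 TPM, and its exons overlap a gene of the other strand. Of 14 genes for ligands of the gp130 family and its relatives, 3 reached 1 TPM in all libraries and 8 had 0 counts (list median −3.32). The other 2 detected were Clcf1, a ligand of the CNTF receptor, at 31.9 ± 17.0 TPM and Osm, which encodes oncostatin M, at 13.4 ± 5.72 TPM. All 7 IL-10 family ligand genes had 0 counts, Il10 with a limit of 1.22, 1.17 and 1.53 TPM. Of the IL-17 ligands, Il17a, Il17b, Il17d and Il25 had 0 counts, Il17f had 4 in all, and Il17c had 14, 16 and 20.

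Among 16 receptor genes of the gp130 family and related chains, 5 reached 1 TPM in all libraries (list median −0.74): Il27ra, Il6ra, Il6st, Crlf2, a chain of the TSLP receptor, at 22.4 ± 10.9 TPM, and Il12rb2, with exon overlap, at 14.3 ± 3.21 TPM. Of the chains that pair with gp130 for other ligands, Lifr, Osmr, Cntfr and Il11ra2 were at 0 counts, and so were the related Lepr and Csf3r. Il11ra1 had 11, 36 and 3 counts. Il31ra, Il12rb1 and Il23r had 10 to 19 counts each in all. Among Il6ra, Il27ra, Lifr, Osmr, Cntfr, Il11ra1 and Il11ra2, only Il6ra and Il27ra thus reached 1 TPM in every library.

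Of 11 receptor genes of the IL-10 and interferon family, 6 reached 1 TPM in all libraries (list median 2.70). Per base of all annotated exons Il10rb and Il10ra were below the interferon receptor chains, with Ifngr1 at 35.4 ± 20.2, Ifnar1 at 25.1 ± 17.99, Ifngr2 at 19.9 ± 11.3 and Ifnar2 at 17.2 ± 7.90 TPM. For Il10rb, which may be undercounted, this depends on the length. It averaged 27.3 TPM on its longest coding transcript, a length not applied to the interferon receptor chains. Chains that pair with Il10rb for other ligands had 0 counts, namely Il22ra1 for IL-22 and Ifnlr1 for the lambda interferons, as had Il20ra and the decoy receptor gene Il22ra2, and Il20rb had 21 counts in all. In the IL-17 receptor family of 5 genes (list median 0.26), Il17ra and Il17rb (14.4 ± 4.12 TPM) reached 1 TPM in all libraries. Il17rc, whose product pairs with that of Il17ra for IL-17A, had 13, 5 and 2 counts, Il17re 2 in all and Il17rd 0. The adaptor gene Traf3ip2, which encodes Act1 and has exon overlap, stood at 98.04 ± 1.93 TPM, and Traf6, which acts after Act1, at 6.39 ± 4.14 TPM. In its list of 13 ligands and adaptors 8 were detected (list median 2.90), the others being Tnip1 at 42.3, Traf5 at 15.2, Nfkbiz at 13.1, Zc3h12a at 10.2 and Traf2 at 8.13 TPM, besides Il17c at 13.4 TPM.

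The kinase and Stat genes downstream were all detected, 11 of 11 (list median 4.54). Jak1, the main kinase on gp130 and Il10ra, stood at 167 ± 89.3 TPM with exon overlap, Jak2 at 33.04 ± 17.5 and Tyk2, which binds the IL-10 receptor's shared chain, at 20.4 ± 8.67 TPM with exon overlap. Stat3 stood at 26.05 ± 13.03 TPM with exon overlap. Of 16 inhibitor genes 13 were detected (list median 3.02). Socs3, which binds gp130 and is induced by IL-6 through Stat3, was second in this list at 87.2 ± 18.2 TPM, from 453, 606 and 308 counts, and has no opposite-strand gene within 5 kb. Ptpn6, which encodes the phosphatase SHP-1, led at 149.9 ± 49.5 TPM with exon overlap, Socs1 stood at 11.4 ± 1.86 TPM and Socs2 had 0 counts. Of 9 genes of receptor shedding and turnover 8 were detected (list median 4.04), among them Adam10 at 20.98 ± 10.4 and Adam17, with exon overlap, at 22.7 ± 1.21 TPM, the proteases that shed the IL-6 receptor chain.

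Of 20 targets of IL-6 and IL-27 signalling 13 were detected (list median 2.42). Mcl1, a survival gene, stood at 132 ± 75.2 TPM, Junb at 95.5 ± 25.2 TPM and Irf1 at 87.3 ± 35.7 TPM, and Junb and Irf1 have exon overlap. Pim1, a kinase gene induced by Stat3, stood at 31.1 ± 14.1 TPM with exon overlap. Among the list's transcription factors of T cell fates, Batf stood at 37.3 ± 9.28, Irf4 at 4.69 ± 1.21, Bcl6 at 3.50 ± 1.94 and Prdm1 at 1.81 ± 0.651 TPM, while Tbx21 had 4 counts in all, Ahr 11, Maf 30 and Rora 52. Of the cytokine genes in the list, Il21 had 17 counts in all and Il10 had 0. Of the 8 common gamma chain receptor genes 6 were detected (list median 3.66). Il7r at 205 ± 106.8 TPM was above Il27ra. Il21r at 92.9 ± 36.2 TPM and Il2rg at 72.3 ± 39.8 TPM had means between those of Il27ra and Il6ra. In replicate 3, though, Il21r stood at 53.8 TPM against 46.1 TPM for Il27ra. Il4ra, with exon overlap, had a mean of 58.02 ± 26.1 TPM, near that of Il6ra, and Il2ra at 2.85 ± 1.77 TPM was below Il10ra.

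**Figure D5:**
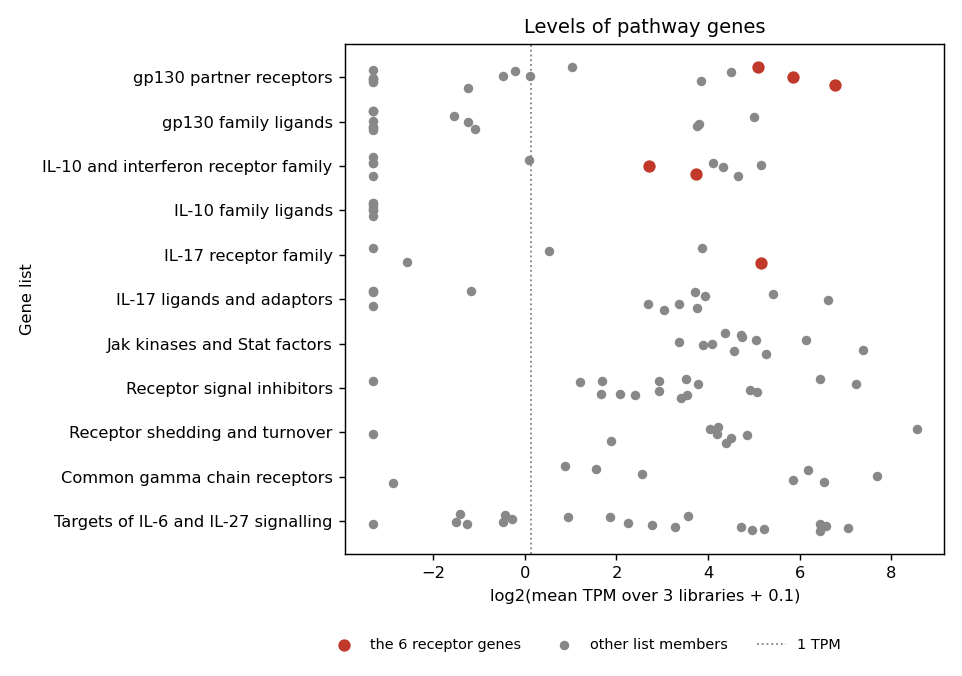
log2(mean TPM + 0.1) of each gene in 11 lists, with the 6 receptor genes in red and 1 TPM as a dotted line. The 3 red points of the gp130 list are its highest, and all 7 IL-10 family ligands lie at the left edge with 0 counts.

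The genes with the profile most like each receptor gene were found by the Euclidean distance of log2(TPM + 0.1) over the 3 libraries, among 16959 protein-coding genes without exon overlap. With 3 points a small distance reflects level and library scaling, so these are descriptions. The nearest to Il27ra were Actr3, Psma2 and Atp5b (distances 0.148 to 0.183), and to Il6ra Wdr43, Pnisr and Pitpnm1 (0.0806 to 0.158). Il6st was nearest Etf1, Riok3 and Slc50a1 (0.0859 to 0.110), and Il17ra nearest Ehd3, Ifngr1 and BC031181 (0.0736 to 0.113). Atg12, Cenpj and Kdm6a were nearest Il10rb (0.0777 to 0.0989), and Arhgap39, Cers6 and Tarbp2 nearest Il10ra (0.0910 to 0.186).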

How the data were processed

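RNA was measured by RNA-seq in 3 libraries of 1 group, numbered by the labels. The deposited values are raw counts. Per the file headers, the authors ran featureCounts (1.4.6-p4) in paired mode, kept fragments whose ends both mapped, used strand setting 1, and took genes from GENCODE M13. Labels give mm10 as the assembly. STAR appears in the counting command, and its version, trimming and the library kit are not given in the sources used here. Multi-mapping fragments and fragments on overlapping genes of the same strand are not counted by default.

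Symbols, biotypes and transcript lengths came from GENCODE M21, which named 50376 of 50600 identifiers. TPM were computed from the deposited counts and the deposited exon length. Genes were classed by overlap with the other strand from the deposited coordinates. TMM sizes and the low-count filter used edgeR 4.0.16 and size factors DESeq2 1.42.0 in R 4.3.3. Variation between libraries was tested by a Poisson chi-square test with 2 degrees of freedom. The test was tried on simulated Poisson counts with changes put into some genes. Those counts held no other spread between libraries, so the trial does not cover biological variation. Ratios used a pseudocount of 0.1, an exact sign-flip permutation test and Clopper-Pearson 95% intervals (scipy 1.17.1). Depth was 3647366, 4305077 and 2510319 counts in replicates 1, 2 and 3. Intervals and the floor of 3 counts cover counting error only, since PCR duplicates were not told apart.

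All 6 members were to be named, with the 3 nearest profiles of each, genes within 5 kb, and list genes at 1 TPM in all libraries or at 0 counts. List genes between these limits were named after their values were seen. Some list genes are not reported here. The members and lists were chosen with earlier results of these data known. Alternatives in scaling, length, pseudocount, filter and omitted libraries are given in the closing section.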

Additional observations from a re-analysis of the deposited data

How the results depend on the processing

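The count of neighbouring pairs with a single order in every library was 3 of 5. It was 3 or 4 under 10 alternatives in scaling, length, pseudocount and omitted libraries. Of these only the change of length could have lowered it, and it gave 4. Scaling and pseudocount leave the order within a library as it is, and omitting a library cannot lower the count. Pairs with a single direction numbered 13 of 15, and 13 or 14 under 6 alternatives. There too only the length settings could have lowered the count. It was 13 on counts with no length scaling and 14 with the longest coding transcript. Over the pairs' log2 ratios, 72 of 90 alternative values moved by less than the spread between libraries and 17 by more. The remaining 1 was Il27ra over Il6ra, which reversed to a log2 ratio of −0.47 on counts with no length scaling, since Il6ra has the longer exons. Leaving out 1 of 3 libraries moves a mean by less than the spread between libraries whatever the values. Those settings could therefore not be among the 17. Il17ra over Il6st, which had no single direction, also changed sign, to −0.23 with no length scaling and −0.06 with the longest coding transcript. TPM of all 6 genes was higher by over 1 SD when fewer genes entered the denominator, Il27ra reaching 382 TPM over genes without exon overlap and 258 over protein-coding genes outside the mitochondrion. Of the 6 genes 5 were called as varying. Leaving out 1 library gave 2 to 5, the 2 without replicate 3 being Il6st and Il17ra, and a log2 difference over 1 in place of the test gave 2. Over all genes 6649 of 10662 were called (62.4%). Leaving out 1 library gave 3303 (28.1% of 11756, without replicate 3) to 6377 (60.8% of 10495), and a log2 difference over 1 gave 4213 (39.5%). Of the scaling and filter alternatives, library totals called 8797 genes (82.5%), DESeq2 size factors 6198 (58.1%) and no filter on low counts 7997 (40.1% of 19958), each with 5 of the 6 receptor genes. The cause was not tested. List genes detected numbered 73, and 54 to 79 under other limits. The longest coding transcript and the T cell scale were chosen after the data were seen. No paired analysis was possible because there was 1 group. Il10ra and Il10rb, at 24 to 153 counts a library, were the members most limited by depth.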
